A study of Mus musculus with 35 samples.

Results

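The secreted Wnt ligands of mouse skin were followed through radiation dermatitis, the skin injury that follows ionising radiation. The 10 ligands were taken from the gene table by symbol: Wnt3, Wnt3a, Wnt4, Wnt5a, Wnt5b, Wnt7b, Wnt9a, Wnt10a, Wnt10b and Wnt16. They are 10 of 36106 genes in the table, and all 10 passed the filter on low counts in every comparison. Bulk RNA was sequenced from 35 skin biopsies of 19 female C57BL/6J mice, an inbred strain, aged 10 weeks. Sham mice had no radiation and gave 3 samples. Radiated skin was taken from the left flank 1, 2, 3 or 4 weeks after 25 Gy, delivered at 3.6 Gy per min over 420 seconds, with 4 samples at each week. Control skin of the radiated mice gave 4 samples at each week as well, and where on the body it was taken is not given in the sources used here. The radiated skin was shaved after treatment. The labels name no mutation or transgene in any group, and each week was taken to be a different set of mice.

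Wnt proteins are lipid-modified signals that the acyltransferase Porcn prepares and the carrier Wls escorts out of the cell. They bind Frizzled receptors, with the co-receptors Lrp5 and Lrp6 when they stabilise beta-catenin, or with Ror2 or Ryk when they act without it. In skin they maintain the epidermis and start each growth phase of the hair follicle, and Wnt10b and Wnt5a are both produced in growing follicles.

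Each ligand has its own gene, on 6 chromosomes of the mouse build GRCm38. Wnt3 lies at chr11:103774150-103817957 on the plus strand, Wnt3a at chr11:59248033-59290752 on the minus strand and Wnt9a at chr11:59306928-59333552 on the plus strand. Wnt7b lies at chr15:85535437-85582473 and Wnt10b at chr15:98770712-98778150, both on the minus strand. Wnt5b lies at chr6:119432531-119544347 on the minus strand and Wnt16 at chr6:22288227-22298522 on the plus strand. Wnt10a lies at chr1:74791516-74804179, Wnt4 at chr4:137277489-137299726 and Wnt5a at chr14:28504750-28527448, all on the plus strand. Wnt3a and Wnt9a are divergent neighbours with 16175 bases between them. Genes on the opposite strand overlap Wnt5a (Gm2670), Wnt5b (Fbxl14) and Wnt7b (AU022754), and the use of strand in counting is not given in the sources used here, so the levels of these 3 ligands are less certain. Fbxl14 stood at 60.1 ± 2.08 CPM (counts scaled by library size) in radiated and at 57.1 ± 2.94 CPM in control skin of week 4 (SD, n = 4 each).

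RefSeq promoter sequences were matched for 7 of the 10 ligands. The stretch before the start of the annotated gene is shown for 2 ligands that were lower in radiated skin at week 4, Wnt3 and Wnt10b, and for 2 that were higher, Wnt5b and Wnt9a. Each is written 5′ to 3′ on the strand of its gene (build GRCm38.p6), and capitals mark a match to a motif that was searched for.
Wnt3 (chr11:103773925-103774149, plus strand): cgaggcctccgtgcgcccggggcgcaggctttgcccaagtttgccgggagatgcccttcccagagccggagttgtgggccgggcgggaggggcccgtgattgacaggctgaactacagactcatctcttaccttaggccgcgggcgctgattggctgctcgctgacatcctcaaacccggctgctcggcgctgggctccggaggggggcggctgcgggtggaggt
Wnt10b (chr15:98778151-98778400, minus strand): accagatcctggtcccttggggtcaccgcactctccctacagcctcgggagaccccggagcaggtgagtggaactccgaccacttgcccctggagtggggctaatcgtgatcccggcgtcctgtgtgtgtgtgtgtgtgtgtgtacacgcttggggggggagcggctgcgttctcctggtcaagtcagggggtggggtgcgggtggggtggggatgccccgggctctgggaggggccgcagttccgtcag
Wnt5b (chr6:119544348-119544597, minus strand): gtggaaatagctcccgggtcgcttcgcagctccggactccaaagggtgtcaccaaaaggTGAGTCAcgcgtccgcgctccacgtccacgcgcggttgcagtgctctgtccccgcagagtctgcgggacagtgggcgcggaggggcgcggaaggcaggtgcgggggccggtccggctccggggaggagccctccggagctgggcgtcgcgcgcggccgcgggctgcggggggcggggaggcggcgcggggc
Wnt9a (chr11:59306680-59306927, plus strand): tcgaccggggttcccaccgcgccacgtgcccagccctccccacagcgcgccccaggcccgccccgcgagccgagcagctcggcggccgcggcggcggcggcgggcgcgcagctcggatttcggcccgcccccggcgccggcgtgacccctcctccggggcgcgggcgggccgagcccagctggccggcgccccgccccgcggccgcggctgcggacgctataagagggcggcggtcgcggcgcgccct
These windows held 20, 14, 35 and 48 CpG dinucleotides in that order, against a median of 6 over 32851 RefSeq promoter windows of the 250 bases before a start. The letters CTTTGA and CTTTGT, the cores that TCF and LEF factors bind, were searched on both strands, and neither was in any of the 7 ligand windows, which are 104 (Wnt4), 225 (Wnt3) and 248 to 250 bases long. A shorter window has less room for a match. Of all windows, each of 250 bases, 13.8% held CTTTGA and 16.5% held CTTTGT. The AP-1 motif, TGANTCA, stood once in the Wnt5b window and in none of the other 6 ligand windows, and 6.75% of all windows held it. TATAAA was in none of the 7 windows and in 12.4% of all.

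Library totals ran from 17362853 to 28487885 counts. The skin markers Krt5, Krt14, Krt1, Krt10, Col1a1, Col1a2 and Dcn were present in every group. The hair cycle differed between libraries: the summed level of 14 growing-follicle markers ran from 2200 to 34300 CPM in sham skin and from 43.4 to 56.9 CPM in control skin at week 4. High values stood alone in control replicates 1 (6930) and 4 (1470) at week 1, control replicate 1 (2830) at week 2, replicate 4 of both groups at week 3 (1120 radiated, 1950 control) and radiated replicate 3 (5970) at week 4. Wound keratinocyte markers were already at 14400 CPM in radiated replicate 2 of week 1 and at 13900 CPM in radiated replicate 4 of week 2, against at most 990 CPM in the control libraries. In bulk skin, fewer cells of a type and less RNA per cell cannot be told apart. The samples of a group were taken to come from separate mice, given 19 mice in all.

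The ligands of sham skin spanned about an order of magnitude per exon length. On the RPKM scale, CPM divided by exon length in kilobases, which allows genes to be compared, Wnt4 was at 16.4 ± 1.87, Wnt3 at 13.3 ± 2.10 and Wnt5a at 11.4 ± 2.43 (SD, n = 3). Wnt7b at 5.26 ± 0.925, Wnt10a at 4.46 ± 1.11, Wnt10b at 3.61 ± 1.79 and Wnt5b at 3.07 ± 0.619 came next. Wnt16 at 1.57 ± 0.612, Wnt9a at 1.44 ± 0.534 and Wnt3a at 1.28 ± 0.501 were lowest. Neighbours in this order overlapped in their ranges except at 2 steps, from Wnt5a to Wnt7b and from Wnt5b to Wnt16.

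**Figure D1:**
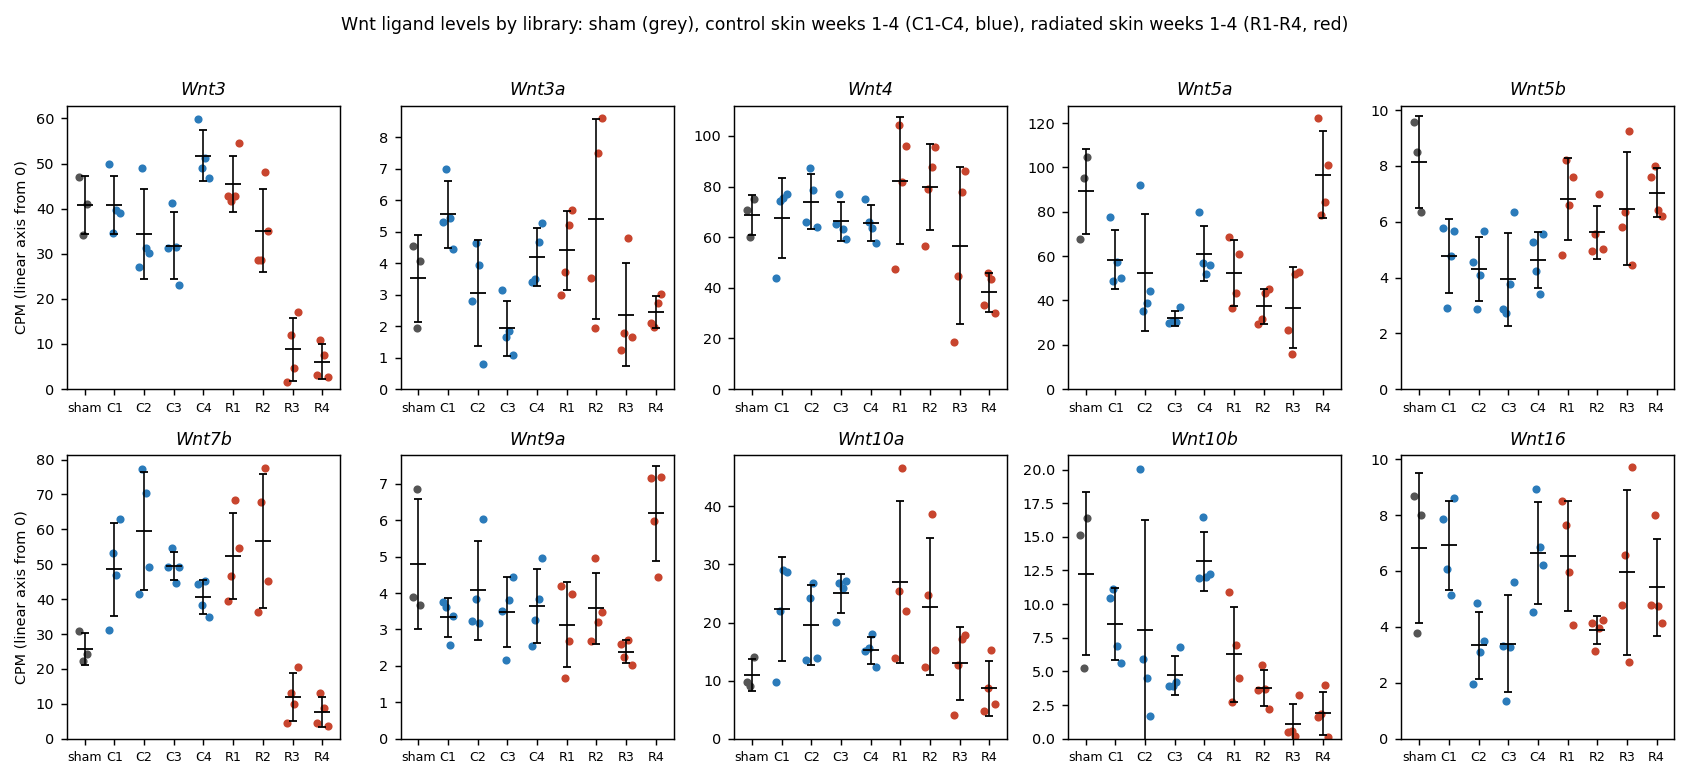
Level of each ligand in each library in CPM on linear axes that start at 0, for sham skin (grey), control skin of weeks 1 to 4 (C1 to C4, blue) and radiated skin of weeks 1 to 4 (R1 to R4, red). Points are libraries, and bars are the mean and SD, cut off at 0. Wnt3 and Wnt7b are low in all libraries of R3 and R4, and Wnt5a is high in R4.

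No ligand passed the test between radiated and control skin in the first 2 weeks. At week 1 the test called 0 of the 10 ligands and 0% of all genes, and at week 2 it called 0 ligands and 0.00577% of all genes (edgeR quasi-likelihood test, adjusted p under 0.05). At neither week did a ligand reach an unadjusted p under 0.05, and DESeq2 called 0 ligands at both. With the mouse number as a block, 3.7% of all genes and still 0 ligands were called at week 2. Wnt3, an activator of beta-catenin signalling made in epidermis and hair follicle, was at 42.7, 41.7, 42.8 and 54.6 CPM in radiated and 49.8, 34.6, 39.6 and 39.1 CPM in control skin at week 1. At week 2 it was at 28.6, 28.6, 48.1 and 35.0 CPM against 27.1, 49.0, 31.3 and 30.2 CPM. The groups overlapped at both weeks. The median log2 fold change of the 10 ligands was 0.02 at week 1 and 0.06 at week 2, beside 0.05 and 0.00 over all genes tested.

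At week 3, Wnt3 and Wnt7b fell in radiated skin. These 2 of 10 ligands, both lower, stood beside 27.2% of all genes called, 13.6% higher and 13.6% lower. Wnt7b, a ligand of epidermis and growing hair bulb, was at 4.39, 13.1, 9.86 and 20.7 CPM in radiated and 49.1, 54.7, 44.8 and 49.3 CPM in control skin. The groups did not overlap, and Wnt7b was 4.06-fold lower (log2 fold change -2.02, SE 0.38, edgeR adjusted p = 0.0052). Wnt3 was at 1.55, 11.9, 4.57 and 17.1 CPM against 31.2, 41.2, 31.6 and 23.1 CPM, again without overlap. It was 3.57-fold lower (log2 fold change -1.84, SE 0.58, edgeR adjusted p = 0.0421). That call was lost under total-count scaling (adjusted p = 0.0671). It was also lost when control replicate 1, 2, 3 or 4 or radiated replicate 2 or 3 was left out, with adjusted p values up to 0.093. Total-count scaling also gave another split over all genes, 4054 higher and 1270 lower where TMM scaling gave 2408 and 2397. Under it Wnt7b stayed lower (adjusted p = 0.00819), and Wnt5b was called higher (log2 fold change 0.97, edgeR adjusted p = 0.0449).

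Wnt10b and Wnt10a did not pass this test at week 3, and both passed once each radiated sample was paired with its control sample. DESeq2, without pairing, called both as well (adjusted p = 0.0127 and 0.0463). Wnt10b, an early signal of follicle growth, was at 0.503, 0.560, 0.190 and 3.27 CPM in radiated and 3.92, 3.89, 4.18 and 6.85 CPM in control skin. Every radiated library was below every control library, and the highest of each group was replicate 4, the pair with high growing-follicle markers. Its log2 fold change was -2.04 (SE 0.72, edgeR adjusted p = 0.0605), and -2.65 with the block (adjusted p = 0.0218). Without radiated replicate 4 it was -3.46 (adjusted p = 0.0013). Wnt10a, which is needed for teeth and other skin appendages, was at 4.16, 12.7, 17.1 and 17.8 CPM against 20.1, 26.8, 26.0 and 27.2 CPM. Its log2 fold change was -0.93 (SE 0.37, edgeR adjusted p = 0.0928), and -1.09 with the block (adjusted p = 0.0462). Without radiated replicate 1 it was -0.64 (adjusted p = 0.0456). With the block 4 ligands were called, all lower, beside 21.1% of all genes.

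The other 6 ligands did not pass at week 3. Wnt4, known from kidney and gonad development, was at 18.5, 44.5, 77.8 and 86.0 CPM in radiated skin, a wider spread than the 59.2 to 77.2 CPM of control skin. Wnt5a, which acts mainly without beta-catenin, was at 26.6, 16.0, 51.8 and 52.8 CPM in radiated skin, on both sides of the 29.8 to 37.0 CPM of control skin. Wnt5b was called higher under total-count scaling and in 1 fit of all 35 libraries (adjusted p = 0.0361). Wnt3a, Wnt5b, Wnt9a and Wnt16 had group means of 2.37 against 1.93, 6.47 against 3.93, 2.39 against 3.49 and 5.96 against 3.39 CPM, radiated against control. In all, 4 of 10 ligands had groups without overlap at week 3, beside 31.7% of all genes. The median log2 fold change of the 10 ligands was -0.36, beside 0.08 over all genes.

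At week 4, 5 ligands fell and 3 rose. Wnt3, Wnt7b, Wnt10b, Wnt4 and Wnt3a were lower in radiated than in control skin, and Wnt5a, Wnt9a and Wnt5b were higher. The 8 of 10 ligands called stood beside 48.4% of all genes, 24.2% in each direction. Leaving out radiated replicate 1 brought the count to 5, and with all 35 libraries in 1 fit it was 5. The median log2 fold change of the 10 ligands was -0.77, beside 0.02 over all genes.

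Wnt3 had the largest fold change of the 10. It was at 3.07, 11.0, 7.54 and 2.72 CPM in radiated and 59.9, 49.1, 51.3 and 46.8 CPM in control skin at week 4. The groups were far apart, and Wnt3 was 8.44-fold lower (log2 fold change -3.08, SE 0.40, edgeR adjusted p = 0.000182). Wnt10b was at 1.62, 1.82, 4.02 and 0.134 CPM against 12.0, 16.5, 12.0 and 12.2 CPM. The lowest of these, radiated replicate 4, rested on 3 counts, and the highest radiated value was again the library with high growing-follicle markers. Wnt10b was 6.86-fold lower (log2 fold change -2.78, SE 0.58, edgeR adjusted p = 0.00313), and the log2 fold change was -3.42 without radiated replicate 3. Wnt7b was at 4.61, 13.1, 8.92 and 3.66 CPM against 44.2, 38.4, 45.2 and 35.0 CPM. It was 5.34-fold lower (log2 fold change -2.42, SE 0.35, edgeR adjusted p = 0.000357). These 3 ligands and Wnt4 passed in each of the 13 alternatives run, including each library left out in turn.

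Wnt4 and Wnt3a fell less. Wnt4 was at 33.3, 45.8, 43.5 and 30.0 CPM in radiated and 75.1, 65.9, 63.5 and 57.8 CPM in control skin at week 4. The groups did not overlap, and Wnt4 was 1.71-fold lower (log2 fold change -0.78, SE 0.15, edgeR adjusted p = 0.00169). Wnt3a, the ligand most used to activate beta-catenin in culture, was at 2.09, 1.98, 2.72 and 3.03 CPM against 3.39, 3.49, 4.66 and 5.27 CPM. It was 1.71-fold lower (log2 fold change -0.77, SE 0.23, edgeR adjusted p = 0.0191). Its call was lost when radiated replicate 1 or 2 or control replicate 4 was left out (adjusted p = 0.0504, 0.0511 and 0.0715) and in 1 fit of all 35 libraries (0.186).

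Wnt5a, Wnt5b and Wnt9a were the ligands that rose. Wnt5a was at 122.5, 78.7, 84.5 and 101.1 CPM in radiated and 79.7, 56.8, 52.0 and 56.0 CPM in control skin at week 4. The groups overlapped by 1 library, control replicate 1. Wnt5a was 1.59-fold higher (log2 fold change 0.67, SE 0.17, edgeR adjusted p = 0.01), a call lost in 1 of 13 alternatives, the fit of all 35 libraries (0.0825). Wnt5b, the close paralogue of Wnt5a, was at 7.60, 7.99, 6.41 and 6.20 CPM against 5.29, 4.25, 3.42 and 5.57 CPM, without overlap. It was 1.53-fold higher (log2 fold change 0.61, SE 0.19, edgeR adjusted p = 0.024). Wnt9a, known from joint formation, was at 7.17, 5.97, 4.44 and 7.18 CPM against 2.54, 3.27, 3.84 and 4.96 CPM. It was 1.69-fold higher (log2 fold change 0.76, SE 0.24, edgeR adjusted p = 0.0266), and the groups overlapped.

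The calls of Wnt5b and Wnt9a were close to the threshold. Wnt5b lost its call without radiated replicate 1 or 2 (adjusted p = 0.0588 and 0.0628), without control replicate 2 or 3 (0.0514 and 0.0577) and in 1 fit of all libraries (0.0758). Wnt9a lost its call without radiated replicate 1 or 4 (0.0694 and 0.069) and without control replicate 2 or 3 (0.0594 and 0.0529). Fold changes of both stayed above 0 in all of these.

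Wnt10a and Wnt16 did not pass at week 4. Wnt10a was at 4.78, 8.77, 15.3 and 5.93 CPM in radiated and 15.1, 15.6, 17.9 and 12.3 CPM in control skin. Replicate 3 alone reached the control range, and it is the library with growing-follicle markers at 5970 CPM. The log2 fold change was -0.80 (edgeR adjusted p = 0.0627). It was -0.92 with the block (adjusted p = 0.0199) and -1.21 without replicate 3 (adjusted p = 0.00223). DESeq2, without pairing, called it lower as well (adjusted p = 0.0301). Wnt16, a ligand with a role in bone, was at 4.78, 7.99, 4.73 and 4.15 CPM against 4.55, 8.93, 6.88 and 6.23 CPM (log2 fold change -0.29, adjusted p = 0.383). In all, 6 of 10 ligands had groups without overlap at week 4, beside 46% of all genes.

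**Figure D2:**
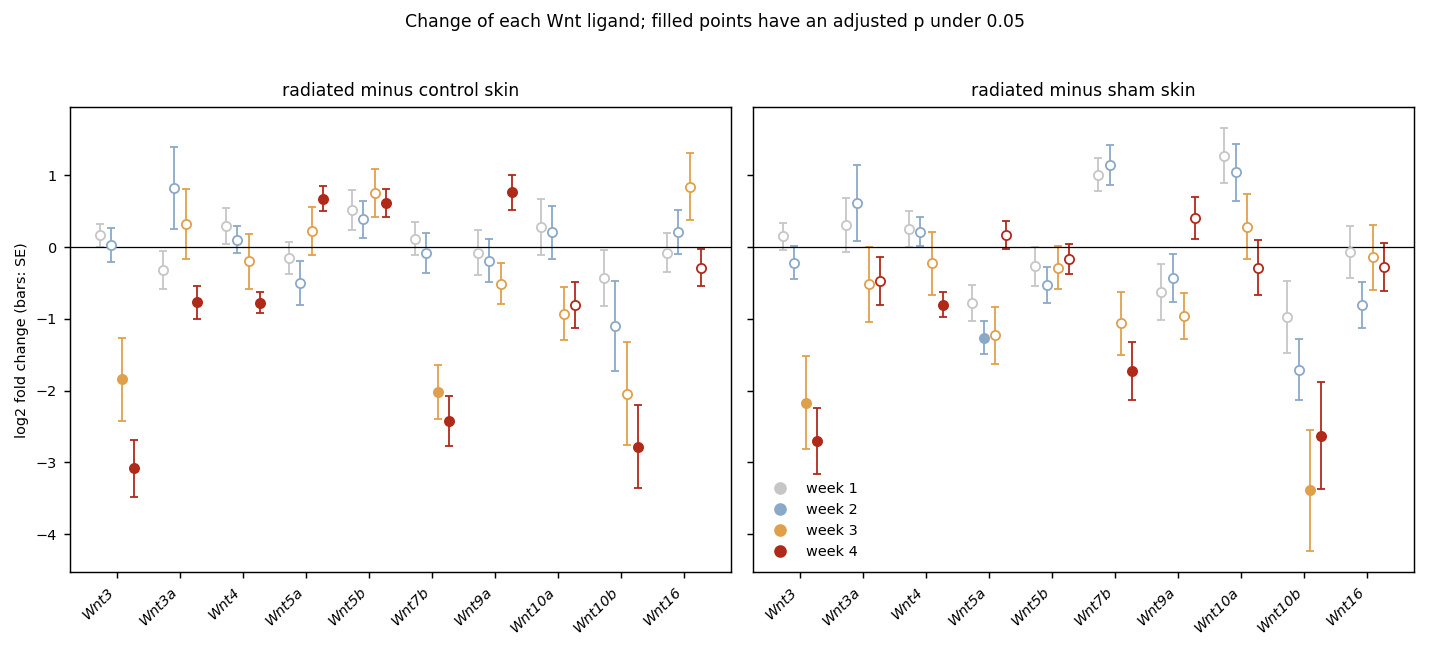
Log2 fold change of each ligand by week, radiated minus control skin (left) and radiated minus sham skin (right), with bars of 1 SE; filled points have an adjusted p under 0.05. Wnt3 and Wnt7b are filled at weeks 3 and 4 on the left, and both panels show Wnt3, Wnt4, Wnt7b and Wnt10b below 0 at week 4. The weeks on the right share the sham libraries.

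Tested across the weeks, the radiated-minus-control difference changed for 2 of 10 ligands, beside 15.6% of all genes (edgeR F test of 3 interaction terms over 32 libraries). The 3013 genes of that share became 960 without the replicates numbered 3, and 1481, 1642 and 1782 without those numbered 1, 2 and 4, and the 2 ligands were called each time. These were Wnt7b (adjusted p = 0.000607) and Wnt3 (adjusted p = 0.000708). With 1 term per mouse, an alternative chosen after seeing the data, Wnt10a was added (adjusted p = 0.0233), beside 15.8% of all genes. For the other ligands a change with time was not shown. Within radiated skin alone, Wnt7b (0.000492), Wnt3 (0.00259), Wnt5a (0.0092) and Wnt9a (0.0106) differed between weeks, 4 of 10 beside 23.3% of all genes. Those 4372 genes became 2581, 2205 and 2040 without the replicates numbered 1, 2 and 3. Without the replicates numbered 1, the adjusted p was 0.0877 for Wnt5a and 0.0559 for Wnt9a, and without those numbered 4 it was 0.0828 for Wnt9a. Calls were also gained: Wnt4 without those numbered 1 (0.0238) and Wnt10b without those numbered 4 (0.00521). With the replicate number as a block, Wnt3a (0.0423), Wnt4 (0.0328) and Wnt10a (0.00145) were added, beside 5580 of 18752 genes.

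The control skin of the same mice was not constant either. Wnt3 (edgeR adjusted p = 0.0415), Wnt16 (0.0425) and Wnt5a (0.0498) differed between the 4 weeks of control skin, 3 of 10 beside 23.9% of all genes. That share, 4346 genes, became 1231 to 1324 without the replicates numbered 2, 3 or 4. Mean Wnt3 was 40.8, 34.4, 31.8 and 51.8 CPM at weeks 1 to 4, with its highest level at week 4. Mean Wnt5a was 58.4, 52.5, 32.0 and 61.1 CPM, with its lowest at week 3. Mean Wnt16 was 6.93, 3.35, 3.39 and 6.65 CPM. All 3 calls were lost without the replicates numbered 3 (0.258, 0.197 and 0.191 for Wnt3, Wnt16 and Wnt5a) and without those numbered 4 (0.174, 0.094 and 0.138). Without those numbered 1, Wnt3 (0.145) and Wnt16 (0.0923) were lost, and Wnt3a (0.0488), Wnt7b (0.0279), Wnt10a (0.0358) and Wnt10b (0.0149) passed, which made 5. Wnt3a, at 0.0522 with edgeR and all libraries, also passed with DESeq2 (0.01) and total-count scaling (0.0405). Without those numbered 2, the calls lost were Wnt16 (0.06) and Wnt5a (0.135). Total-count scaling lost Wnt5a (0.0616).

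Against sham skin at week 4, Wnt3, Wnt10b, Wnt7b and Wnt4 were lower, and Wnt5a, Wnt5b and Wnt9a did not pass. All comparisons with sham skin share its 3 libraries. Wnt3 was 6.48-fold lower (adjusted p = 0.00357), Wnt10b 6.19-fold lower (0.0315), Wnt7b 3.29-fold lower (0.0147) and Wnt4 1.74-fold lower (0.00976), 4 of 10 beside 26.7% of all genes (edgeR). The call of Wnt10b was lost without sham replicate 1 or 3 or radiated replicate 1 or 2, with adjusted p values up to 0.0852, and its log2 fold change went from -2.63 to -3.29 without radiated replicate 3. Wnt5a was at 67.9, 95.1 and 104.5 CPM in sham skin, which overlapped the 78.7 to 122.5 CPM of radiated skin at week 4 (log2 fold change 0.17, adjusted p = 0.581). Wnt5b (-0.17, adjusted p = 0.597) and Wnt9a (0.41, adjusted p = 0.347) did not pass against sham skin.

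At week 3, Wnt3 (4.49-fold lower, adjusted p = 0.0498) and Wnt10b (10.5-fold lower, adjusted p = 0.0276) fell against sham skin, 2 of 10 beside 18.2% of all genes (edgeR). Leaving out any sham library lost both calls, as did leaving out radiated replicate 2. Total-count scaling also lost Wnt3 (0.0554). Leaving out radiated replicate 3 lost Wnt3 (0.112) and leaving out radiated replicate 1 lost Wnt10b (0.0609). Without radiated replicate 4, the log2 fold change of Wnt10b went from -3.39 to -4.83 (adjusted p = 0.00238). Wnt7b did not pass against sham skin at week 3 (12.0 against 25.7 CPM, log2 fold change -1.06, adjusted p = 0.128), and it passed in 1 fit of all libraries (0.0208). Wnt5a (36.8 against 89.1 CPM, -1.23, adjusted p = 0.0644) and Wnt9a (2.39 against 4.80 CPM, -0.96, adjusted p = 0.0679) did not pass either, without overlap between the groups, and both passed with DESeq2 (0.0184 and 0.0285) and in 1 fit of all libraries (0.0026 and 0.0125). At week 2 edgeR called 1 ligand lower, Wnt5a, by 2.39-fold (adjusted p = 0.0208), 1 of 10 beside 5.06%. That call was lost without sham replicate 2 or 3 or radiated replicate 3 (0.0834, 0.112 and 0.0555). Wnt10b (log2 fold change -1.71, adjusted p = 0.0524) and Wnt7b (1.14, adjusted p = 0.0522) were just outside the threshold at week 2. Wnt10b passed with DESeq2 (0.00257), total-count scaling (0.0428) and no filter (0.0364), and Wnt7b with DESeq2 (0.00316), no filter (0.0388) and 1 fit of all libraries (0.0366). At week 1 edgeR called 0 ligands, beside 1.75%, with 3 at an unadjusted p under 0.05. DESeq2 called 2 ligands there, beside 1238 of 18228 genes. With edgeR, growing-follicle markers lower than in sham skin were 14 of 14 at weeks 1 and 2, 10 at week 3 and 4 at week 4. The part of the hair cycle in these ligand differences was not tested. The numbers of all genes called moved with single libraries: the 319 of week 1 became 1 without radiated replicate 3, the 912 of week 2 became 107 without sham replicate 3 and the 3308 of week 3 became 1134 without sham replicate 2.

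Control skin also stood apart from sham skin for Wnt5a, Wnt7b and Wnt10a. At week 3, Wnt5a was 2.81-fold lower than in sham skin (adjusted p = 0.00399), Wnt7b 1.90-fold higher (0.0119) and Wnt10a 2.25-fold higher (0.0154), 3 of 10 beside 11.4% of all genes (edgeR). The call of Wnt10a was lost without sham replicate 2 (0.0506), and in 1 fit of all libraries Wnt7b (0.0964) and Wnt10a (0.0874) were lost. Total-count scaling called 5 ligands at week 3, adding Wnt5b (log2 fold change -1.23, adjusted p = 0.0374) and Wnt10b (-1.59, adjusted p = 0.0339), both lower. At week 2, Wnt7b was 2.29-fold higher (0.046), 1 of 10 beside 2.44%. This call was lost without sham replicate 2 or 3 or control replicate 2, 3 or 4 (0.154, 0.149, 0.116, 0.122 and 0.117). At week 1 edgeR called 0 ligands, beside 4.92%, with 4 at an unadjusted p under 0.05. DESeq2 called 3 ligands there, beside 2974 of 17893 genes. At week 4 edgeR called 0 ligands, beside 3.65%, with 4 at an unadjusted p under 0.05. DESeq2 called 2 ligands there, beside 1855 of 17925 genes. The numbers of all genes called at weeks 1, 2 and 4, 881, 435 and 655, each became 0 when 1 library was left out (sham replicate 2 or 3 at week 1, sham replicate 3 or control replicate 4 at week 2, control replicate 4 at week 4), and the 2036 of week 3 became 629 without sham replicate 3. Growing-follicle markers lower in control than in sham skin were 0, 1, 9 and 14 of 14 at weeks 1 to 4, with sums at week 3 of 40.2 to 1950 against 2200 to 34300 CPM. Skeletal muscle markers higher in control skin were 4, 4, 3 and 0 of 5, with sums at week 3 of 14400 to 29100 against 5810 to 12600 CPM. The part of these cell types in the differences from sham skin was not tested.

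Wnt10b and Wnt5a levels moved with growing-follicle markers in part of the libraries. Control replicate 1 of week 2 had 20.0 CPM of Wnt10b and 91.8 CPM of Wnt5a, against 1.72 to 5.89 and 35.4 to 44.0 CPM in the other 3 control libraries of that week. It was also the library of its group with 2830 CPM of growing-follicle markers, where the others had 23.7 to 129 CPM. Control skin at week 4, with 43.4 to 56.9 CPM of these markers, still had 12.0 to 16.5 CPM of Wnt10b. Radiated replicate 3 of week 4 had 5970 CPM of the markers with 4.02 CPM of Wnt10b and 84.5 CPM of Wnt5a, less Wnt5a than replicate 1 (122.5 CPM), whose markers were at 275 CPM. Control replicate 1 of week 1, with 6930 CPM of the markers, had the highest Wnt5a of its group, 77.4 CPM, but its 10.4 CPM of Wnt10b was below the 11.2 CPM of replicate 2 (33.0 CPM of markers). The part of the hair cycle in these ligand levels was not tested.

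**Figure D3:**
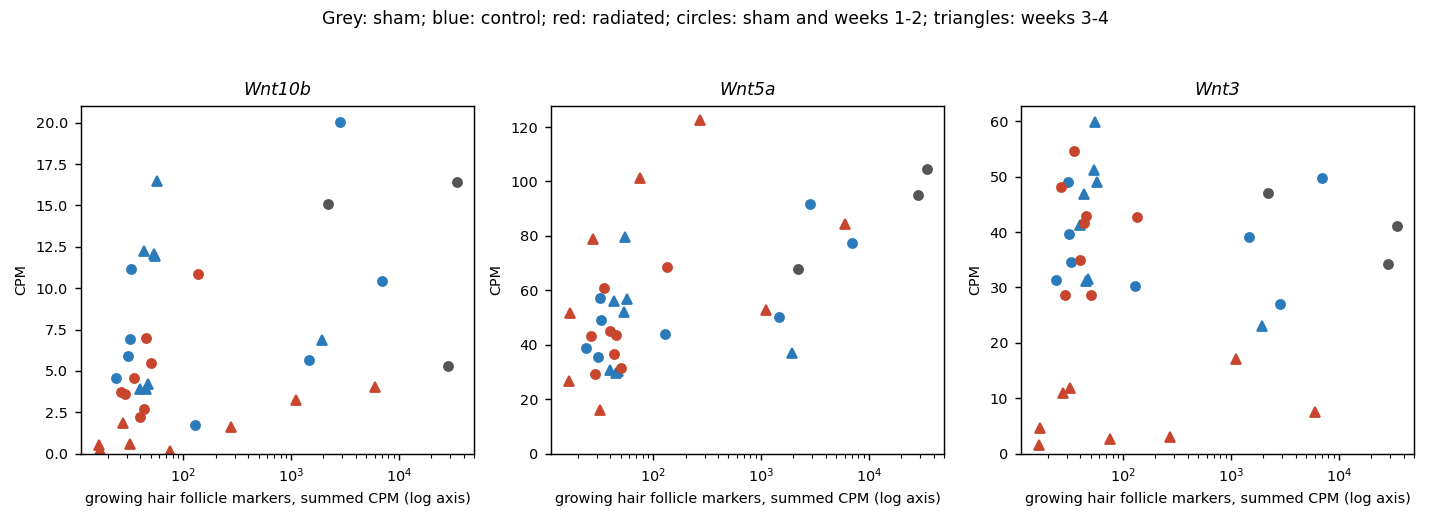
CPM of Wnt10b, Wnt5a and Wnt3 (linear axes from 0) against the summed CPM of 14 growing hair follicle markers (log axis), 1 point per library. Radiated libraries of weeks 3 and 4 (red triangles) are lowest for Wnt3, at 16.5 to 5970 CPM of the markers, and control libraries of week 4 reach 16.5 CPM of Wnt10b with at most 56.9 CPM of the markers.

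Other cell types moved with the ligands as well. The counts below stand beside 48.4% of all genes called at week 4, 24.2% in each direction. At week 3 the share was 27.2%, 13.6% in each direction. With the block it was 21.1% at week 3, and 7623 of 17850 genes at week 4. At week 4, all 5 wound keratinocyte markers rose, with sums of 10300 to 13500 CPM in radiated and 494 to 554 CPM in control skin. All 6 fibroblast markers rose, with sums of 27900 to 47100 against 2210 to 4630 CPM, and 5 of 6 leukocyte markers rose, with sums of 779 to 1200 against 161 to 199 CPM. The sixth, the T cell gene Cd3e, fell (log2 fold change -1.23, adjusted p = 0.000244). All 4 endothelial markers rose, with sums of 372 to 484 against 164 to 280 CPM, and 3 of 4 melanocyte markers rose, with sums of 25.2 to 48.4 against 14.0 to 16.5 CPM. Of the 12 growing-follicle markers tested, 8 rose, with sums of 275, 27.9, 5970 and 75.3 CPM in radiated skin, and with the block 4 were called. Skeletal muscle markers were lower, 4 of 5 at week 3 (sums of 2460 to 7320 against 14400 to 29100 CPM) and 4 of 5 at week 4 (879 to 2060 against 1130 to 17300 CPM). With the block 4 were called at week 3 and 1 at week 4, Myh4. Basal keratinocyte markers summed to 10600 to 12900 against 12500 to 15700 CPM, with Krt5, Krt15 and Trp63 lower and Krt14 higher. Krt10, a keratin of differentiating epidermis, had means of 1390 and 8400 CPM. At week 3, wound keratinocyte sums were 4590 to 15800 against 708 to 853 CPM. No marker was at 0 throughout a group. The part of cell makeup in the ligand differences was not tested.

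The mix of ligands was different in radiated skin at week 4. Per exon length, the 10 ligands summed to 35.7 ± 3.80 RPKM in radiated and 64.5 ± 5.12 RPKM in control skin (SD, n = 4 each), and to 61.7 ± 6.69 RPKM in sham skin (n = 3). Wnt5a made up 35.3% ± 9.66 of this sum in radiated and 12.0% ± 1.67 in control skin. Wnt3 made up 5.33% ± 3.07 against 26.0% ± 0.961, and Wnt7b 4.19% ± 2.08 against 12.9% ± 1.03. The share of Wnt4 was 25.3% ± 2.66 against 24.2% ± 0.816. In radiated skin of week 4 the order began with Wnt5a at 12.4 ± 2.51 RPKM and Wnt4 at 9.09 ± 1.83 RPKM, whose ranges overlapped. In control skin of that week it began with Wnt3 at 16.8 ± 1.86 and Wnt4 at 15.6 ± 1.72 RPKM, which overlapped too. At week 3 the radiated sum was 34.5 ± 15.2 RPKM, from 15.6 to 50.3, against 55.8 ± 3.85 RPKM in control skin. Shares were not tested, since each depends on the other 9 ligands.

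**Figure D4:**
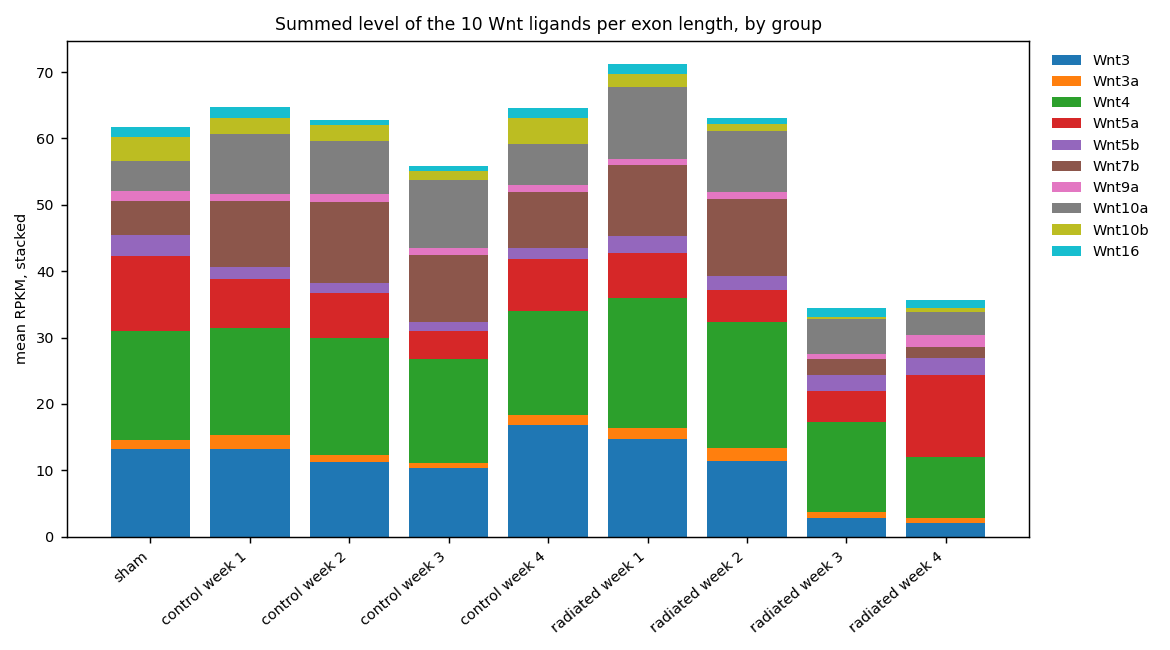
Mean RPKM of the 10 ligands stacked by group, with sham first, then control and radiated skin by week. The stacks of radiated weeks 3 and 4, at 34.5 and 35.7 RPKM, are the lowest, and Wnt5a is the widest band at radiated week 4.

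Some ligands tracked each other across the 35 libraries. As a description, with libraries that share group and hair cycle, Spearman's rho of log2 CPM was 0.815 between Wnt7b and Wnt10a, 0.694 between Wnt4 and Wnt10a, 0.677 between Wnt4 and Wnt7b and 0.65 between Wnt3 and Wnt10b. It was -0.439 between Wnt5a and Wnt7b. For Wnt3 and Wnt7b rho was 0.508 and Pearson's r 0.902, the highest r of these pairs. Of 16400 genes averaging 1 CPM or more, the closest to Wnt3 were Arvcf (0.899), Pou2f3 (0.889) and Hs3st3b1 (0.857), and by Pearson's r other genes were closest to it, Ano9, Cldn23 and Krt23. Among the closest to Wnt7b were Chit1 (0.933) and Tns4 (0.912). Those closest to Wnt10b were Mycl (0.936), Bcl7a (0.927) and Axin2 (0.918). For Wnt10a they were Fam83h (0.892), Myc (0.887) and Tbc1d10a (0.871). For Wnt4 they were Pkp1 (0.857), Klk11 (0.837) and Traf6 (0.837). For Wnt5a they were Mpzl1 (0.827), Kif26b (0.812) and Ift122 (0.81). Wnt16 was closest to Tmem218 (0.791), Wnt3a to Cpped1 (0.754), Wnt5b to Gjb2 (0.717) and Wnt9a to Tbc1d8b (0.601), the loosest match of the 10.

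The 2 genes that Wnt secretion needs changed in opposite directions. Porcn, the acyltransferase, was higher in radiated skin at week 3 (6.19 against 1.98 CPM, log2 fold change 1.66, adjusted p = 0.0163) and week 4 (7.47 against 2.20 CPM, 1.77, adjusted p = 0.00155; edgeR). Wls, the carrier of all Wnt proteins, was lower at week 3 (53.4 against 104 CPM, -0.93, adjusted p = 0.00139) and week 4 (86.8 against 127 CPM, -0.54, adjusted p = 0.00623). Against sham skin at week 4, neither Porcn (0.73, edgeR adjusted p = 0.24; DESeq2 0.182) nor Wls (-0.46, edgeR adjusted p = 0.0614; DESeq2 0.0468) passed with edgeR. Of the 9 other ligands, 5 were tested at week 4. Wnt6 was lower at week 3 (-1.42, edgeR adjusted p = 0.0197; 0.0572 with the block) and week 4 (-1.51, adjusted p = 0.00103). Wnt6 is the tandem neighbour of Wnt10a, with 6193 bases between them. Wnt7a was higher at week 3 (2.44, adjusted p = 0.0475), a call lost with the block (0.165).

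Receptors that changed were mostly lower. At week 4, 7 of 15 receptors and co-receptors fell, Fzd2, Fzd3, Fzd6, Fzd7, Fzd8, Fzd10 and Ryk, and 1 rose, Ror2, beside 48.4% of all genes called, 24.2% in each direction. Ror2, the receptor through which Wnt5a acts without beta-catenin, went from 9.22 to 18.3 CPM (log2 fold change 1.00, SE 0.14, edgeR adjusted p = 0.000354). In sham skin it was at 20.2 ± 5.38 CPM (SD, n = 3). The log2 fold change against sham skin was -0.09 in radiated (adjusted p = 0.783) and -1.14 in control skin (0.0251). That call of control skin was lost without sham replicate 3 or any 1 control library and in 1 fit of all libraries, with adjusted p values up to 0.162. Fzd10 had a log2 fold change of -1.62 (adjusted p = 0.00213) and Fzd3 of -1.51 (5.4e-05). The co-receptors Lrp5 (0.01) and Lrp6 (0.06) did not pass, nor did Ror1 (-0.02). At week 3, 4 of 15 fell, Fzd3, Fzd4, Fzd5 and Ryk, beside 27.2% of all genes called, and with the block Fzd4 was lost (0.0568).

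Secreted inhibitors moved both ways at week 4. Of 12, Sfrp2, Dkk3 and Sfrp1 rose, and Dkk2, Frzb, Notum and Sostdc1 fell, beside 24.2% of all genes in each direction. With the block Sfrp4 was added (-0.72, adjusted p = 0.0264). Sfrp2, which binds Wnt proteins outside the cell, went from 3.94 ± 1.81 CPM in control to 59.9 ± 15.6 CPM in radiated samples (SD, n = 4 each; log2 fold change 3.93, edgeR adjusted p = 1.49e-05). Sostdc1, an inhibitor of Wnt and BMP signals, had a log2 fold change of -2.35 (adjusted p = 0.00201). At week 3, edgeR called 0 of 12, with 1 at an unadjusted p under 0.05. DESeq2 called 1, beside 6024 of 17653 genes.

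R-spondins and their Lgr receptors keep Frizzled on the cell surface by blocking the ligases Znrf3 and Rnf43, which are themselves switched on by Wnt signals. At week 4, 6 of 9 genes of this group fell, Rspo3, Lgr4, Lgr5, Lgr6, Znrf3 and Rnf43, and Rspo4 rose (log2 fold change 2.52, adjusted p = 0.000199), beside 24.2% of all genes in each direction. Rspo3 was at 2.30 ± 0.719 against 10.7 ± 2.07 CPM (-2.21, edgeR adjusted p = 5.85e-05). Lgr6, a receptor for R-spondins in hair follicle stem cells, was at 19.0 ± 10.7 against 97.6 ± 18.5 CPM (-2.36, adjusted p = 0.000423). At week 3, Lgr4 (-1.07, 0.0303) and Lgr6 (-2.08, 0.0371) fell, 2 of 8 tested beside 27.2% of all genes called.

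Genes that beta-catenin is known to switch on were lower in most of those called. At week 4, 6 of 13 genes of beta-catenin transcription fell, Tcf7l2, Axin2, Nkd1, Apcdd1, Myc and Tnfrsf19, and Ccnd1 rose, beside 48.4% of all genes called, 24.2% in each direction. With the block Tcf7l2 (0.0545) and Ccnd1 (0.0581) were lost. Axin2, the most widely used target gene of the pathway, was at 38.0 ± 10.5 CPM in radiated and 180 ± 22.4 CPM in control skin (log2 fold change -2.24, SE 0.19, edgeR adjusted p = 1.62e-05). Tnfrsf19 had a log2 fold change of -2.70 (adjusted p = 0.00175). Ctnnb1, beta-catenin itself, did not pass at week 4 (-0.12, adjusted p = 0.202). At week 3, Myc (-1.38, edgeR adjusted p = 0.00257) and Ctnnb1 (-0.44, adjusted p = 0.0459; 0.0615 with the block) fell, 2 of 12 tested beside 27.2% of all genes called, and Axin2 did not pass (-1.05, 0.0688). Tnfrsf19 passed with the block (-2.71, adjusted p = 0.0418) and not without it (0.0646). DESeq2 called 4 of these genes, beside 6024 of 17653 over all. In weeks 1 and 2, edgeR called 0 of the 56 genes tested over these lists in each week, with 7 at an unadjusted p under 0.05. DESeq2 called 1 at week 1 and 3 at week 2, beside 423 of 17578 and 734 of 17345 genes. With the block 2 were called at week 2, both lower, Lgr6 (-0.68, adjusted p = 0.0345) and Tnfrsf19 (-0.90, adjusted p = 0.0318), beside 3.7% of all genes.

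**Figure D5:**
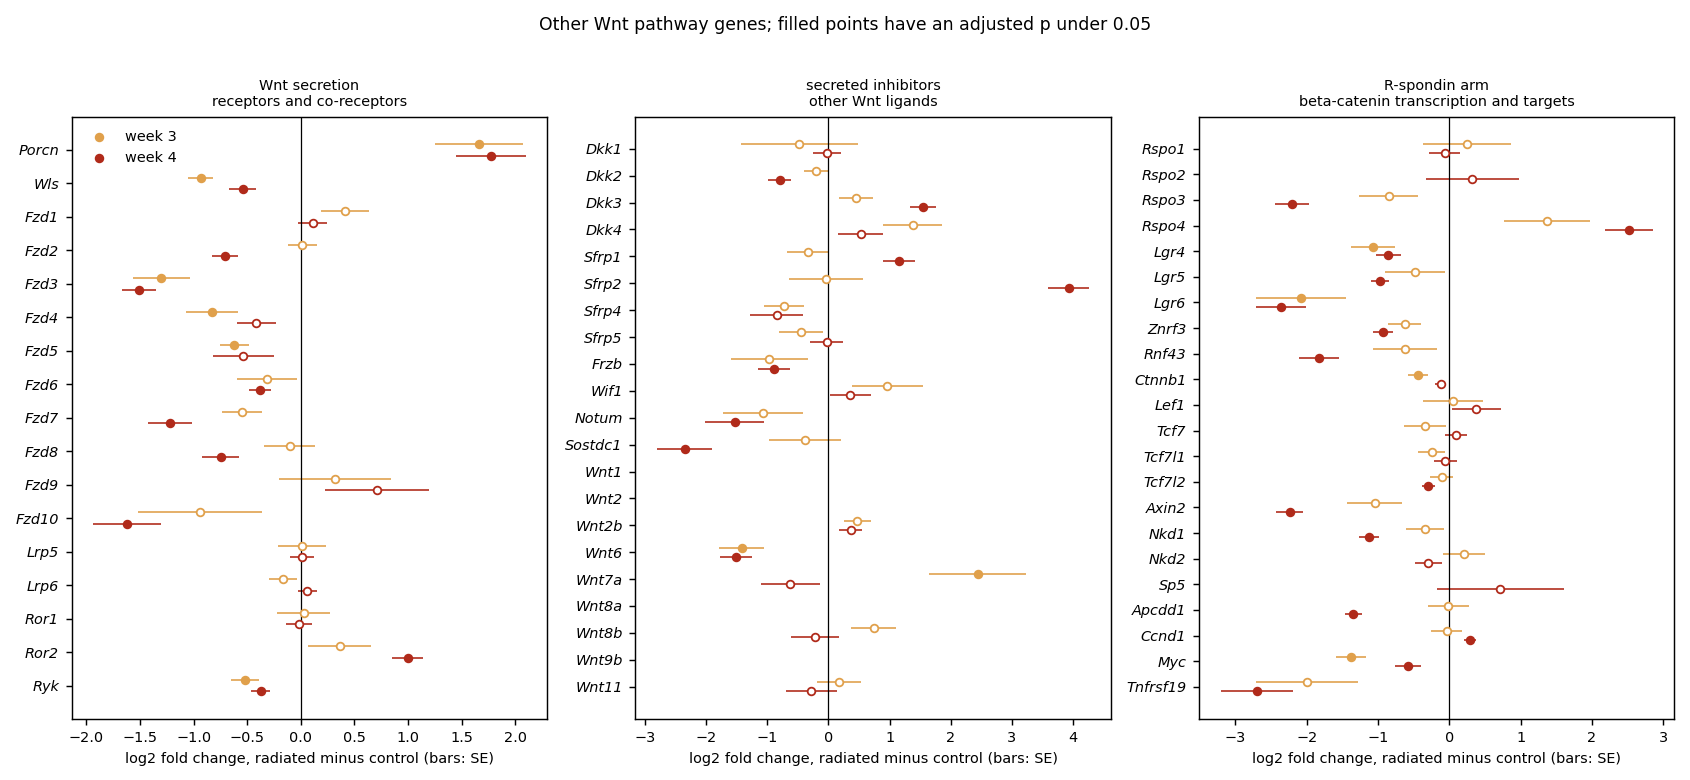
Log2 fold change, radiated minus control skin, of the genes of 6 Wnt pathway lists at weeks 3 (orange) and 4 (red), with bars of 1 SE; filled points have an adjusted p under 0.05. At week 4 filled points for receptors, the R-spondin arm and beta-catenin targets lie mainly left of 0, with Ror2, Rspo4 and Ccnd1 right of it, and Sfrp2 has the highest value at 3.93.

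Against sham skin at week 4, beside 26.7% of all genes called, 6 of 9 genes of the R-spondin arm were lower in radiated skin, Rspo3, Lgr4, Lgr5, Lgr6, Znrf3 and Rnf43. Rspo4 did not pass (0.96, edgeR adjusted p = 0.175). Of beta-catenin transcription and targets, 6 of 13 were lower, Lef1, Axin2, Nkd1, Nkd2, Apcdd1 and Tnfrsf19, with Axin2 at a log2 fold change of -1.81 (edgeR adjusted p = 0.00107). Of 15 receptors, 5 were lower, Fzd3, Fzd5, Fzd6, Fzd7 and Fzd10, and Fzd9 was higher. Of 12 inhibitors, Sfrp2 (4.35, edgeR adjusted p = 0.000543) and Dkk3 were higher, and Dkk1, Notum and Sostdc1 lower. Control skin of that week differed from sham skin in 4 of 57 genes tested over these lists, Ror2, Dkk1 and Lef1, lower, and Apcdd1, higher, beside 3.65% of all genes. Leaving out 1 library lost each of these 4 calls of control skin at least once, with adjusted p values over the alternatives up to 0.469. DESeq2, with 1855 of 17925 genes called, called these 4 and 8 more: Wnt11, Fzd5, Fzd6, Sfrp1, Rspo4, Lgr4 and Lgr5, lower, and Myc, higher. Without sham replicate 1, edgeR called 7 of those 8, all but Sfrp1, and also Rspo3, Tcf7 and Nkd2. Lgr4 and Lgr5, lower in radiated skin, had log2 fold changes of -0.67 and -1.15 in control against sham skin (edgeR adjusted p = 0.105 and 0.11). Among the calls of radiated skin, leaving out 1 library lost Fzd5, Fzd7, Fzd9, Fzd10, Sostdc1, Rspo3, Lef1 and Nkd2 at least once. Adjusted p values there went up to 0.115. The fit of all libraries lost Dkk1 (0.108) and Fzd9. Of the other ligands, Wnt6 was lower in radiated than in sham skin (log2 fold change -1.37, edgeR adjusted p = 0.0452). That call was lost without sham replicate 1 or 3 or any 1 radiated library. Its adjusted p values over the alternatives went up to 0.194.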

How the data were processed

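Per the submitters' processing notes, reads were trimmed with Trim Galore 0.6.7 and quantified with kallisto 0.46.2, build mm10; the use of strand and the step from transcripts to genes are not given in the sources used here. The authors deposited estimated counts per gene, not scaled between libraries, and 29.5% to 32.5% of the values of a library were not whole. Those of Wnt4, Wnt5a and Wnt16 were not whole in any of the 35 libraries. Counts were rounded here. Low ligands were measured less precisely: Wnt10b went down to 3 counts, with library totals of 17362853 to 28487885.

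The tests were run in R 4.3.3 with edgeR 4.0.16: filterByExpr, TMM scaling, quasi-likelihood F test, Benjamini-Hochberg adjustment over all genes tested, and a threshold of 0.05. Only the groups compared entered a fit. The SE is the log2 fold change divided by the square root of F. CPM used TMM factors, log2 CPM a prior count of 2, and RPKM the union exon length of GENCODE genes. Alternatives were DESeq2 1.42.0, total-count scaling, no filter, 1 fit of all 35 libraries, a replicate block and each library left out. On simulated counts for week 3 (17842 genes, 200 changed, dispersion 0.1), edgeR recovered 15% of 2-fold and 98% of 4-fold changes, with 6.61% false among its calls; far more genes were called in the real data, where recovery can differ.

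Same-numbered radiated and control samples were taken as 1 mouse, from the sample names and 35 samples of 19 mice. Their deviations from the group means correlated at 0.0706, 0.173, 0.0525 and -0.0198 on average at weeks 1 to 4. Among 51 pairs of libraries within a group, 0 were identical and the lowest reduced chi-square was 20, so each counted as 1 replicate. All 10 ligands were named whatever their values, with any gene of the 6 pathway lists and the genes closest to a ligand by Spearman's rho, up to 3 each; 1 of these is not reported here. The ligands and lists were chosen with earlier results of these data known.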

Additional observations from a re-analysis of the deposited data

Results flagged for a closer look

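The radiated-minus-control difference of Wnt3 (edgeR adjusted p = 0.000708) and Wnt7b (0.000607) differed between the 4 weeks by the test of the interaction.

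In 10 of 80 groups of 4 libraries, 1 library stood apart from the other 3 by Dixon's 95% criterion, where chance gives about 4. High values were Wnt3 at 54.6 CPM in radiated replicate 4 of week 1, Wnt3a at 4.80 CPM in radiated replicate 3 of week 3 and Wnt16 at 7.99 CPM in radiated replicate 2 of week 4. Wnt5a was high at 91.8 CPM in control replicate 1 of week 2 and at 37.0 CPM in control replicate 4 of week 3. Wnt10b was high at 3.27 CPM in radiated and 6.85 CPM in control replicate 4 of week 3, and at 16.5 CPM in control replicate 2 of week 4. Low values were Wnt4 at 44.0 CPM in control replicate 1 of week 1 and Wnt10a at 20.1 CPM in control replicate 1 of week 3. Of these libraries, control replicate 1 of weeks 1 and 2 and replicate 4 of both groups at week 3 also had over 1000 CPM of growing-follicle markers. The part of the hair cycle in these values was not tested.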

How the results depend on the processing

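Over the ligand and pathway differences recomputed, 450 log2 fold changes kept their direction and side of the threshold, 74 lost the threshold, 10 gained it and 0 reversed. Ligand differences entered if called by the main test. For radiated against control skin, all 10 ligands at week 4 and Wnt10a and Wnt10b at week 3 entered whatever their call. Pathway genes entered only if called at week 3 or 4, with no library left out. A set chosen this way leaves little room for gains or reversals. For radiated against control skin the ligands called were 2 at week 3, and 4 with DESeq2, 4 with the replicate block and 4 in 1 fit of all libraries; at week 4 they were 8, and 9 with DESeq2, 9 with the block and 5 in 1 fit. Leaving out 1 library gave 1 to 3 at week 3 and 5 to 9 at week 4. Against sham skin, radiated weeks 1, 2, 3 and 4 had 0, 1, 2 and 4 ligands called. DESeq2 gave 2, 3 and 4 at weeks 1 to 3, no count filter 1 and 3 at weeks 1 and 2, total-count scaling 2 and 1 at weeks 2 and 3, and 1 fit of all libraries 2 and 5 at weeks 2 and 3. Leaving out 1 library gave 0 to 1, 0 to 2, 0 to 4 and 3 to 4. Control weeks 1 to 4 against sham skin had 0, 1, 3 and 0. DESeq2 gave 3, 2, 5 and 2, no count filter 1 at week 1, 1 fit 2 at week 2 and total-count scaling 5 at week 3. Leaving out 1 library gave 0 to 3, 0 to 2, 3 to 4 and 0 to 2. For radiated skin over weeks, 4 were called, 7 with DESeq2 and 7 with the replicate block, and 3 to 4 without 1 replicate number; for control skin over weeks, 3, and 0 to 5. The interaction kept 2 when a replicate number was left out. The cause was not tested.

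The replicate block, which pairs by mouse in radiated against control skin, changed no ligand call there beyond Wnt10a and Wnt10b at week 3 and Wnt10a at week 4. Over weeks a replicate number joins different mice; used as a block it added Wnt10a to the interaction (adjusted p = 0.0218). Sham samples share only a number with the others: there the block gave 0 in control week 2 and 1 in control week 3, and added Wnt5a at radiated week 3 (3 called).

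Total-count scaling shifted the median over all genes, in log2 units, by 0.14 and 0.24 at weeks 1 and 3 of radiated against control skin, by -0.14 at week 2 of radiated against sham skin, and by -0.15, -0.18 and -0.17 at weeks 1 to 3 of control against sham skin. At week 3 it gave 4054 genes higher and 1270 lower in radiated than in control skin, where TMM gave 2408 and 2397, and called Wnt5b (higher) in place of Wnt3. Genes called at weeks 1 and 2 were 0 and 1 by edgeR, 423 and 734 by DESeq2, and 641 with the block at week 2. Against sham skin, DESeq2 called 1238, 2482, 4861 and 6001 genes at radiated weeks 1 to 4, where edgeR called 319, 912, 3308 and 4899. At control weeks 1 to 4 it called 2974, 1956, 3594 and 1855, where edgeR called 881, 435, 2036 and 655.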
